A study of Mus musculus with 4 samples.

Results

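The cells described here were proliferating conventional CD4+ T cells of the mouse liver, the dividing T cells outside the regulatory (Treg) compartment. They were chosen cell by cell from raw counts of unique molecular identifiers (UMIs, each of which stands for 1 captured RNA molecule). A cell was taken if it had over 200 genes and under 5% mitochondrial UMIs, at least 1 UMI of *Mki67*, at least 1 of *Top2a* and at least 1 of the CD3 genes *Cd3e*, *Cd3d* and *Cd3g*, and no UMI of *Foxp3*, *Ikzf2*, *Siglech* or *Lyz2*. This rule found 374 cells, of which 271 came from the library labelled WT and 103 from that labelled dKO, among 28018 filtered cells (10556 and 17462) of 28247 in all. The values of these 9 genes chose the cells and are given below only as a description.

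Hepatic CD4+ T cells were sorted from WT mice and from mice that lack *Nr4a1* and *Nr4a2* in T cells (Nr4a1 fl/fl Nr4a2 fl/fl Cd4Cre, labelled dKO). All mice were male, of an age not given in the sources used here, and had received for 8 weeks a choline-deficient diet (CD) in which fat gave 60% of the calories and methionine was set at 0.1%. The diet is a model of metabolic dysfunction-associated steatohepatitis (MASH). Cells of 2 mice were pooled in each group, and nothing in the files tells the mice apart, so each genotype is 1 library without replicates. No test between the genotypes was run. All intervals in parentheses are 95% intervals and cover counting error only. They are exact for shares of cells (Clopper-Pearson), CPM (Poisson) and ratios (conditional binomial), and Newcombe's for differences of shares. *Cd4Cre* acts in the thymus in both the CD4+ and the CD8+ lineage, so the deletion is not particular to conventional cells, to dividing cells or to the liver.

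A CD4+ T cell that meets its antigen leaves rest, copies its DNA in S phase and divides at the end of G2/M phase. *Mki67* encodes the Ki-67 protein of dividing nuclei, and *Top2a* encodes the topoisomerase that untangles replicated chromosomes. Both transcripts accumulate from S phase toward mitosis, so cells in G1 or early S phase can be missed by a rule that asks for both. Conventional CD4+ cells take up effector programs while they expand. T helper 1 (Th1) cells make interferon-gamma (*Ifng*) under the factor T-bet (*Tbx21*), and Th17 cells make the interleukins encoded by *Il17a* and *Il17f*. The Nr4a family (*Nr4a1*, *Nr4a2* and *Nr4a3*) comprises nuclear receptors induced within hours of T cell receptor (TCR) signaling.

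The targeted genes were counted first. *Nr4a1* (ENSMUSG00000023034, chr15:101254269-101274795 of GRCm38) had 593 CPM in the proliferating conventional cells labelled WT and 1343 CPM in those labelled dKO, a log2 ratio (dKO over WT throughout) of 1.18 (1.02 to 1.34). *Nr4a2* (chr2:57106830-57124003) had 131 and 237 CPM, a log2 ratio of 0.85 (0.49 to 1.21). CPM here is a gene's UMIs, added up over all cells of a group from 1 library, relative to all UMIs of those cells. Both targeted genes thus went against the labels, also in conventional T cells without a UMI of *Mki67* or *Top2a*, where the log2 ratios were 1.24 and 0.98. The counts do not show which exons were read, so transcripts left by a floxed allele are counted with intact ones. Libraries are therefore named by their labels, and every direction rests on them. *Nr4a3* (chr4:48045153-48086447), which was not targeted, had 220 and 109 CPM in the proliferating conventional cells, a log2 ratio of -1.01 (-1.47 to -0.58), and -0.04 (-0.13 to 0.05) in the conventional cells without either gene.

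The choice was checked against cell type markers. All 11 genes of a CD4 T cell list were detected in the proliferating conventional cells of both libraries, and also in the other conventional cells. *Cd3e*, *Cd3d* and *Cd3g* of this list are rule genes, so this count is a description and does not check the choice. *Cd4* itself had a UMI in 49.1% of the cells labelled WT (203 CPM) and 83.5% of those labelled dKO (454 CPM), and the log2 ratio was 1.16 in them and 1.72 in conventional cells without *Mki67* and *Top2a*. *Cd8a* was at 0 in both libraries, and *Cd8b1*, the other CD8 gene, had a UMI in 6 cells labelled WT (2.21%) and 3 labelled dKO (2.91%), while a UMI of either gene was found in 1.22% and 1.55% of the other conventional cells. The invariant TRAV11-TRAJ18 receptor chain of natural killer T cells was found in 0 of 146 cells with a TRA chain labelled WT, with an exact upper limit of 2.49%, and in 0 of 60 labelled dKO, with an upper limit of 5.96%. Among the other conventional cells this chain had shares of 2.10% and 4.07%, which lie below these limits. A list of 8 NKT cell markers summed to 342 CPM labelled WT, with a UMI in 52.0% of cells, and to 76.3 CPM labelled dKO, where 4 genes were at 0, among them *Zbtb16*, the defining factor PLZF. Activated T cells also express several genes of this list, and *Slamf1* (162 and 57.8 CPM) and *Xcl1* (95.0 and 0 CPM) held most of the sum labelled WT, where *Zbtb16* had 9.25 CPM. A list of 8 gamma delta T cell genes had 28.6 and 14.4 CPM, with a UMI in 8.49% and 3.88% of cells. Its UMIs lay in 5.01% and 3.37% of the other conventional cells. A list of 10 NK and innate lymphoid cell genes had 162 and 204 CPM, with a UMI in 34.7% and 48.5% of cells. In the other conventional cells it had 230 and 256 CPM, with a UMI in 21.4% and 20.8%. The part of such cells was not tested. Myeloid markers summed to 31.1 and 18.6 CPM over 12 genes, of which 6 and 9 were at 0 (*Lyz2*, a rule gene, among them). Classical dendritic cell markers came to 1124 and 503 CPM over 10 genes, of which the MHC class II genes *Cd74*, *H2-Aa* and *H2-Ab1* gave 652, 227 and 176 CPM labelled WT and 217, 90.8 and 22.7 CPM labelled dKO. Of the other genes of this list, *Xcr1* and *Clec9a* had 4.20 and 2.52 CPM labelled WT and 2.06 CPM each labelled dKO. *Ccr7*, which resting T cells also express, had 52.1 and 138 CPM, in 27 and 10 cells. *Fscn1* had 0.841 and 28.9 CPM, the latter from 14 UMIs in 1 cell. The part of dendritic cells in these values was not tested. B and plasma cell markers came to 360 CPM labelled WT, where all 8 were detected, against 12.4 CPM labelled dKO, where 5 were at 0, among them *Cd79a*, *Ms4a1*, *Mzb1* and *Pax5*. Labelled WT, the 5 cells with the most UMIs of *H2-Ab1* held 329 of the 428 UMIs of B and plasma cell markers and 979 of the 1254 UMIs of the 3 MHC class II genes. The part of such cells in the results was not tested beyond the counts without the 5 richest cells of a gene given below.

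Cells with many UMIs are more likely to hold both transcripts and to be 2 cells in 1 droplet. The proliferating conventional cells had a median of 3764 UMIs (562 to 24074) labelled WT and 4358 (975 to 12341) labelled dKO, against 1583 and 1264 UMIs in conventional T cells without either gene. Their UMIs summed to 1189117 and 484738. Predicted doublets (the top Scrublet scores together with cells with at least 2 TRB chains) made up 15.5% (11.4 to 20.4) of them labelled WT and 10.7% (5.45 to 18.3) labelled dKO, against 7.60% and 6.18% of the other conventional cells. They were kept. The libraries shared 245 cell barcodes over all cells, none of them between proliferating conventional cells of both, although 9 of these cells labelled WT and 2 labelled dKO had a barcode that occurs among all cells of the other library.

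Close to the threshold, 52 of the 271 cells labelled WT and 7 of the 103 labelled dKO had exactly 1 UMI of each gene. Those 52 cells had 7227 CPM of a list of 52 G2/M genes without *Mki67* and *Top2a*, compared with 15238 CPM in the 142 cells with at least 2 UMIs of each, and the 7 cells had 7204 compared with 16104 CPM. Just outside the rule, 214 and 98 conventional cells with *Mki67* alone had 4553 and 4465 CPM of this list. The conventional cells with neither gene had 1662 and 1514 CPM. On the side of the Treg genes, 30 cells labelled WT and 48 labelled dKO were left out for exactly 1 UMI of *Foxp3* or *Ikzf2*. A list of Treg genes without these 2 came to 1344 and 3303 CPM in them, while the cells inside the rule had 1258 and 2150 CPM and proliferating Tregs (cells with both proliferation genes and a UMI of *Foxp3* or *Ikzf2*) had 2818 and 5141 CPM. In the other conventional cells, which make up most of the denominator of the shares that follow, the list had 1303 CPM labelled WT and 4074 CPM labelled dKO, the latter above the proliferating conventional cells of the same library and at a median of 1264 UMIs per cell. The part of Tregs with uncaptured *Foxp3* and *Ikzf2* in that denominator was not tested.

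Proliferating cells were a smaller share of the conventional T cells in the library labelled dKO. They made up 4.49% (3.98 to 5.04) of 6034 conventional T cells labelled WT and 2.22% (1.82 to 2.69) of 4630 labelled dKO, a difference of -2.27 percentage points (-2.94 to -1.59) and a 2.02-fold higher share labelled WT (1.60 to 2.56). T cells with a *Foxp3* or *Ikzf2* UMI showed 7.23% and 3.65%, a 1.98-fold higher share labelled WT (1.56 to 2.51), which also turned with depth (3.51% and 3.23% from 2000 to under 4000 UMIs, 26.6% and 40.2% with 4000 or more). Among all proliferating T cells, conventional cells were 72.7% (67.8 to 77.1) labelled WT and 29.3% (24.6 to 34.4) labelled dKO. The share of T cells with a *Foxp3* or *Ikzf2* UMI differed as well among cells without *Mki67* and *Top2a*, at 17.6% and 58.5%.

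The lower share labelled dKO moved with the number of UMIs per cell. Among conventional cells with at least 1000 and under 2000 UMIs, 2.07% (1.59 to 2.66) labelled WT and 0.329% (0.150 to 0.623) labelled dKO proliferated. From 2000 to under 4000 UMIs the shares were 4.55% (3.61 to 5.63) and 4.98% (3.45 to 6.92), which overlap within counting error. With 4000 or more UMIs the order was the reverse, 26.8% (22.8 to 31.0; 126 of 471 cells) labelled WT and 56.6% (46.6 to 66.2; 60 of 106 cells) labelled dKO. Such deep cells were 7.81% of the conventional cells labelled WT and 2.29% of those labelled dKO. With 2000 UMIs drawn from every cell and cells below that depth omitted, the shares were 7.01% and 9.51%, and the ratio of WT to dKO was 0.737. When cells were thinned to 500 UMIs, which left out no cell, the ratio was 1.67, but this also thinned the Treg and CD3 genes of the rule and moved the conventional cells from 6034 to 5199 labelled WT and from 4630 to 6338 labelled dKO. With only *Mki67* and *Top2a* thinned to 500 UMIs the ratio was 2.23. Dividing cells also hold more RNA, so depth and proliferation are not independent of each other, and their parts in the difference cannot be told apart in these libraries.

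**Figure D1:**
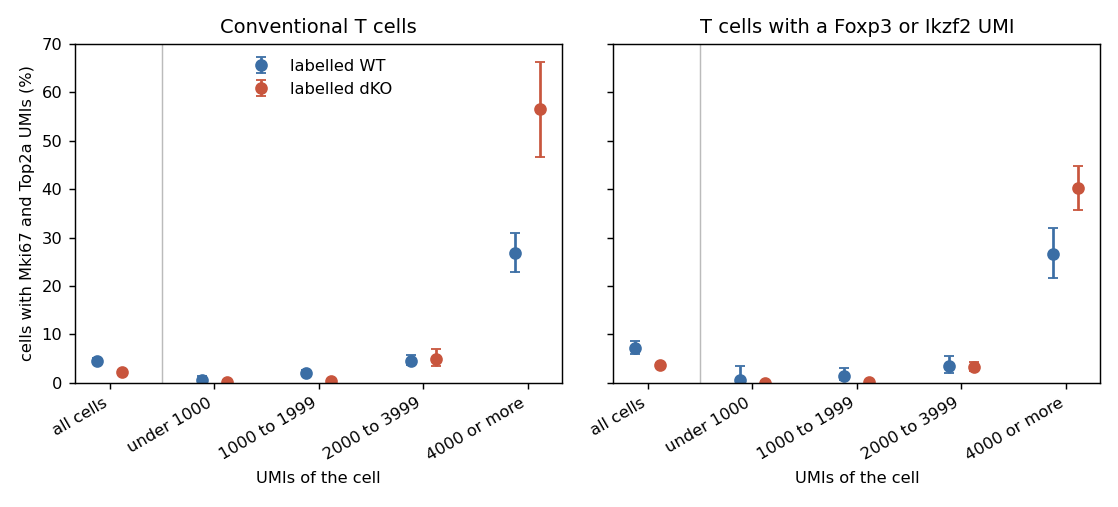
Share of cells with UMIs of both *Mki67* and *Top2a* (%, vertical axis) over all cells and by the number of UMIs of the cell (horizontal axis), in conventional T cells (left) and in T cells with a *Foxp3* or *Ikzf2* UMI (right). Points are libraries and bars are exact 95% intervals, and the library labelled WT is higher over all conventional cells (4.49% against 2.22%) and lower among those with 4000 or more UMIs (26.8% against 56.6%).

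Genes of the cell cycle set these cells apart from the other conventional T cells, as follows from the rule, and the values that follow are a description of the choice. Of 3347 genes past a minimum (at least 50 CPM in a group and at least 10 UMIs), 299 (8.93%) were at least 2-fold higher in the proliferating conventional cells of both libraries and 58 (1.73%) were at least 2-fold lower. By the naming rule, which also asks for at least 10 UMIs in the lower group, the 8 highest were *Hmmr*, *Birc5*, *Nusap1*, *Aspm*, *Pclaf*, *Ube2c*, *Tpx2* and *Fbxo5*. *Birc5*, which encodes survivin of the chromosomal passenger complex, had 484 CPM labelled WT and 691 CPM labelled dKO against 7.72 and 4.97 CPM in the other conventional cells. *Ube2c*, the ubiquitin-conjugating enzyme of the anaphase-promoting complex, had 793 and 1098 CPM against 14.1 and 6.95 CPM. *Pclaf*, a partner of the replication clamp PCNA, had 704 and 955 CPM against 12.3 and 4.97 CPM.

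By function, 23 of 23 spindle, kinetochore and cytokinesis genes past the minimum were at least 2-fold higher in both libraries (26 listed, median log2 ratio 5.22), as were 39 of 40 G2/M genes (52 listed, median 5.02) and 26 of 28 S phase genes (42 listed, median 2.73). Replication-dependent histones followed with 12 of 13 (median 3.53), the licensing and fork genes that load and run the replicative helicase with 11 of 12 (median 2.67) and nucleotide synthesis with 7 of 9 (median 2.51). The median over all genes was 0.09. Within the list of cyclins, kinases and inhibitors, 7 of 15 genes were higher and 1 was lower. *Ccna2*, the cyclin of S and G2 phase, had 332 and 367 CPM against 3.05 and 1.32 CPM, whereas *Ccnd2*, a cyclin of G1 phase, had 114 and 80.5 CPM against 231 and 214 CPM. *Cdkn1a*, which encodes the inhibitor p21, had 129 and 186 CPM, above 73.0 and 121 CPM in the other conventional cells. Of 11 glycolytic genes past the minimum, 1 was 2-fold higher and 10 had a mean ratio of both libraries above 0 (median 0.69).

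At the other end stood genes of quiescence and recirculation. By the same rule the 8 lowest were *Txnip*, *Il7r*, *Satb1*, *Il4ra*, *Bcl2*, *Bach2*, *Fosl2* and *Foxp1*. *Il7r* (chr15:9505788-9530176), the receptor chain through which resting T cells receive survival signals from interleukin 7, had 180 and 113 CPM in the proliferating conventional cells against 565 and 595 CPM in the other conventional cells, log2 ratios of -1.65 and -2.39. *Bcl2*, an antiapoptotic factor downstream of that receptor, had 66.4 and 26.8 CPM against 189 and 158 CPM. *Txnip*, a brake on glucose uptake, had 69.0 and 59.8 CPM against 242 and 237 CPM. Of 13 naive and recirculation genes past the minimum, 7 were at least 2-fold lower in both libraries and all 13 had a mean ratio of both libraries below 0 (median -1.55). Of 17 immediate early genes past the minimum, *Jun* and *Fosl2* were at least 2-fold lower in both libraries and the other 15 did not pass, and the mean ratio of all 17 was below 0 (median -0.83). *Jun*, a subunit of the AP-1 factor, had 225 and 103 CPM against 544 and 409 CPM.

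Within the proliferating conventional cells, transcripts of S phase were a slightly larger part of the summed cell cycle lists in the library labelled dKO, and values per cell changed order with depth. Of the UMIs of the S and G2/M lists, S genes held 25.4% (24.8 to 25.9) labelled WT and 27.8% (26.9 to 28.7) labelled dKO, a difference of 2.41 percentage points. After thinning of every cell to 2000 UMIs, which left out 66 and 10 cells, the shares were 25.6% (24.6 to 26.6) and 27.5% (26.1 to 28.9), and these intervals overlapped. In proliferating Tregs the shares were 23.2% and 28.4%. Cells ranged widely in both libraries. The S share of a cell had a 10th percentile of 6.25%, a median of 24.2% and a 90th percentile of 57.6% labelled WT, and of 6.41%, 27.8% and 61.3% labelled dKO. Cells with more S than G2/M UMIs were 15.9% (43 of 271) labelled WT and 17.5% (18 of 103) labelled dKO, but 16.6% (34 of 205) and 11.8% (11 of 93) after thinning. The mean S share per cell was 28.1% and 31.0%, and 29.97% and 29.56% after thinning.

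**Figure D2:**
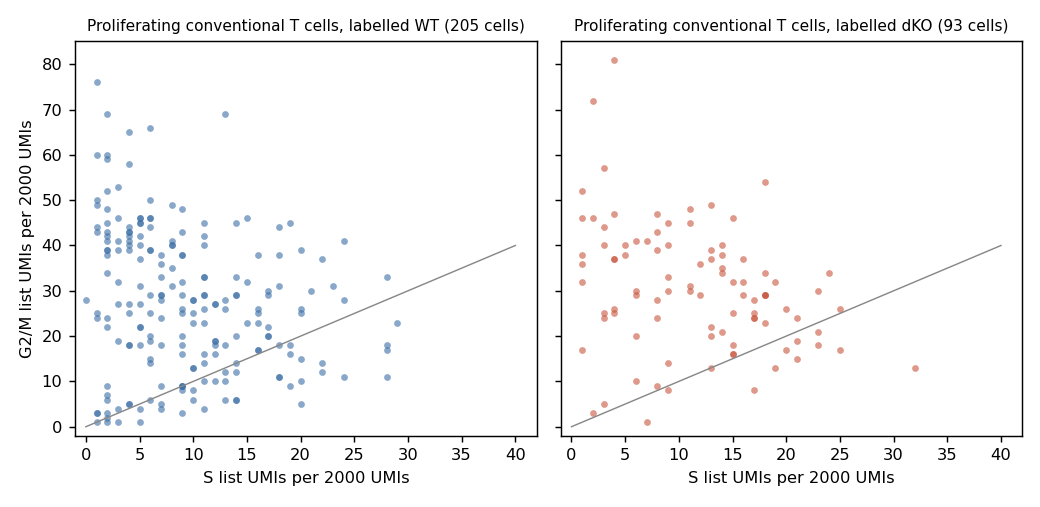
UMIs of the G2/M list (vertical axis) against UMIs of the S list (horizontal axis) in each proliferating conventional T cell with at least 2000 UMIs, thinned to 2000 UMIs, in the library labelled WT (left, 205 cells) and labelled dKO (right, 93 cells). Points are cells and the line marks equal counts; most cells lie above the line in both libraries, and 34 and 11 cells have more S than G2/M UMIs.

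The summed levels of several cycle lists, though not of all, stood higher labelled dKO. The S list had 4532 CPM (4412 to 4655) labelled WT and 5617 CPM (5408 to 5833) labelled dKO, and the replication licensing and fork list had 2623 and 3348 CPM. The list of cyclins, kinases and inhibitors had 2749 CPM (2656 to 2845) and 2764 CPM (2618 to 2916). Replication-dependent histones summed to 6787 and 8431 CPM, but 6 of their 13 genes past the minimum had a ratio above 0 (median -0.0045). By gene, no licensing gene of 14 past the minimum differed by 2-fold (median log2 ratio 0.43), nor did any of 24 spindle genes (median 0.09), and 1 of 31 S phase genes was 2-fold lower. That gene was *E2f8*, a repressor of the E2F family, with 67.3 and 33.0 CPM. *Mcm6*, a helicase subunit, had 172 and 299 CPM, a log2 ratio of 0.80 (0.48 to 1.11), with 0.72 in the other conventional cells. *Rrm2*, a subunit of ribonucleotide reductase, had 340 and 516 CPM, a log2 ratio of 0.60 (0.37 to 0.83). The rule leans toward cells with many cycle transcripts where depth is low, and the share of cells at 1 UMI of each rule gene also differed, at 19.2% labelled WT and 6.80% labelled dKO. Its part in these levels was not tested.

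Between the libraries, the Th17 and Th1 lists held more genes 2-fold apart than the G2/M list. The rule chose the cells of both libraries for *Mki67* and *Top2a*, so likeness in cell cycle genes is partly set by it. The difference between the lists was not tested. Of 3651 genes past the minimum in the proliferating conventional cells, 70 (1.92%) were at least 2-fold higher labelled dKO and 184 (5.04%) at least 2-fold lower, with a median log2 ratio of -0.01 over all of them. These counts are of single libraries and rest partly on low counts, since the cells labelled dKO hold fewer UMIs. Against these backgrounds, 7 of 9 Th17 genes past the minimum (14 listed) were higher and none was lower (median 1.75). Of 13 Th1 genes (14 listed), 5 were lower and 2 were higher (median -0.95). None of the 43 G2/M genes past the minimum was 2-fold apart in either direction.

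*Il17a* (ENSMUSG00000025929, chr1:20730905-20734496) had 213 CPM in the proliferating conventional cells labelled WT and 924 CPM in those labelled dKO, a log2 ratio of 2.12 (1.89 to 2.35). Its UMIs lay in 20 of 271 cells (7.38%) and 27 of 103 cells (26.2%), and the 5 cells with the most UMIs held 69.6% and 41.5% of them. *Il17f* (chr1:20777146-20790617), its neighbor and dimer partner, had 44.6 and 179 CPM, a log2 ratio of 2.01 (1.5 to 2.53). Without these 5 cells of each library the log2 ratio of *Il17a* was 3.11, and that of *Il17f* without its own top 5 was 4.37 (5 and 41 UMIs left), an alternative chosen after seeing the data. Removal of 5 cells took a larger part of the *Il17a* UMIs labelled WT, so the rise of its ratio follows from this choice and shows no stronger difference. Of the receptor genes given here, *Ccr6* and *Ramp1* passed the minimum and were higher labelled dKO. *Ccr6*, which guides Th17 cells along CCL20, had 12.6 and 57.8 CPM, and *Il1r1*, the receptor for interleukin 1 and below the minimum, had 18.5 and 43.3 CPM. *Ramp1*, the subunit of the CGRP receptor, had 35.3 and 136 CPM. *Rora*, a second nuclear receptor of the lineage that many tissue T cells express, had the opposite order, with 607 and 328 CPM, a log2 ratio of -0.89 (-1.15 to -0.64).

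The same order of *Il17a* was seen outside the dividing cells. In conventional cells without *Mki67* and *Top2a* it had 83.6 CPM labelled WT and 359 CPM labelled dKO, a log2 ratio of 2.10 (1.98 to 2.22), so the difference between libraries was of like size in both. In each library *Il17a* was higher in the proliferating than in the other conventional cells, by 1.35 and 1.37 on the log2 scale. In proliferating Tregs it had 126 and 148 CPM.

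*Ifng* (ENSMUSG00000055170, chr10:118441046-118445892) went the other way. It had 193 CPM labelled WT and 88.7 CPM labelled dKO, a log2 ratio of -1.12 (-1.62 to -0.64), and a UMI in 86 of 271 cells (31.7%) and 15 of 103 cells (14.6%). *Tbx21* had 119 and 53.6 CPM, a log2 ratio of -1.14 (-1.81 to -0.53), and *Il12rb2*, the interleukin 12 receptor chain that sustains Th1 cells, had 93.3 and 18.6 CPM, a log2 ratio of -2.33 (-3.50 to -1.35). *Tnf*, an inflammatory cytokine, had 80.7 and 24.8 CPM, and *Ly6c2*, a surface protein of memory and effector cells, 65.6 and 20.6 CPM. The 5 cells with the most UMIs of *Ifng* held 33.2% and 69.8% of them, and without these cells its log2 ratio was -2.23. Their removal took the larger part labelled dKO, so this move away from 0 also follows from the choice. With 1 cell per clonotype it was -1.78. The log2 ratios of *Ifng*, *Tbx21* and *Il12rb2* in the other conventional cells were -0.77, -0.68 and -0.80. The 2 Th1 genes that were higher labelled dKO were *Ccl5*, a chemokine shared with cytotoxic cells, with 831 and 4825 CPM (log2 ratio 2.54, 2.43 to 2.65), and *Eomes*, a T-box factor of cytotoxic cells. *Eomes* had 0 UMIs labelled WT and 28 labelled dKO (57.8 CPM), at least 4.52 higher on the log2 scale when the count of 0 is set to a floor of 3 UMIs over the group.

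Both cytokine programs were also counted by cell. After thinning to 2000 UMIs, 21.0% (15.6 to 27.2) of the proliferating conventional cells labelled WT and 9.68% (4.52 to 17.6) of those labelled dKO had *Ifng* without *Il17a* or *Il17f*. The reverse, *Il17a* or *Il17f* without *Ifng*, was found in 6.34% (3.42 to 10.6) and 30.1% (21.0 to 40.5). Both together were found in 3 of 205 and 0 of 93 cells, while the product of the shares of cells with each gives 3.59 and 2.71 cells, so these counts do not show whether the programs are found apart. Without thinning, the shares were 30.3% and 13.6% for *Ifng* alone and 6.27% and 28.2% for *Il17a* or *Il17f* alone. The other conventional cells had, after thinning, 22.2% and 14% for *Ifng* alone and 1.89% and 11.1% for *Il17a* or *Il17f* alone. *Siglech* cells without CD3, which should lack both cytokines, had *Il17a* or *Il17f* in 0.217% and 0.0361% and *Ifng* in 0.651% and 0.144% of the 461 and 2769 cells with at least 2000 UMIs, thinned to 2000 (the medians before thinning were 1537 and 2901 UMIs over all such cells). *Lyz2* cells without CD3 had *Il17a* or *Il17f* in 2.82% (0.343 to 9.81; 2 of 71) labelled WT and in 0 of 316 labelled dKO, so that the share labelled WT cannot be told from this level, and *Ifng* in 1.41% and 0.316%.

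*Il10*, an antiinflammatory cytokine made by Tregs and by some effector cells, had a UMI in 0.976% (0.118 to 3.48) labelled WT and 10.8% (5.28 to 18.9) labelled dKO after thinning, and in 1.48% and 12.6% without it. Its share in *Siglech* cells was 0% and 0.433%. The Th2 cytokines *Il4*, *Il5* and *Il13* had a UMI in 5 of 205 and 0 of 93 cells after thinning, and in 4.80% and 0.971% without it. *Il2*, the growth factor of activated T cells and below the minimum, had 35 UMIs labelled WT and 2 labelled dKO, the latter under the floor of 3 UMIs, a log2 ratio of -2.83 (-5.94 to -0.87). It had a UMI in 9.59% and 1.94% of cells. After thinning the shares were 3.9% (1.70 to 7.54) and 1.08% (0.0272 to 5.85), and these intervals overlapped.

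Cytotoxic genes were split between the libraries. Of 10 past the minimum (16 listed), 5 were at least 2-fold higher labelled dKO and 4 at least 2-fold lower. *Gzmk* (chr13:113171608-113225908), a granzyme of effector memory cells, had 22.7 and 357 CPM, a log2 ratio of 3.97 (3.38 to 4.62), in 18 of 271 and 28 of 103 cells. The 5 cells richest in it held 48.1% and 49.7% of its UMIs. *Gzmb*, the main granzyme of killer cells, had 58.9 and 167 CPM, a log2 ratio of 1.51 (1.03 to 1.99). The chemokines *Ccl4* and *Ccl3*, which recruit other leukocytes, had log2 ratios of 4.11 (3.68 to 4.58) and 3.68 (3.09 to 4.32), yet 5 cells labelled dKO held 87.0% of the *Ccl4* UMIs and 93.8% of the *Ccl3* UMIs. Both are also abundant in the *Siglech* cells of these libraries, where *Ccl4* had a UMI in 87.0% and 91.8% of cells after thinning, and the part of free RNA in these 2 genes was not tested. On the lower side were *Gzma* with 106 and 10.3 CPM (78.6% of its UMIs labelled WT in 5 cells), *Fasl*, the death ligand, with 77.4 and 24.8 CPM, *Ctsw* with 319 and 122 CPM, and *Xcl1*, a chemokine for cross-presenting dendritic cells, with 113 UMIs labelled WT and 0 labelled dKO. *Ccl5* belongs to this list as well as to the Th1 list. The log2 ratio of *Ccl4* was 3.50 without the 5 cells of each library richest in it, 5.96 without predicted doublets and 6.12 with at least 2 UMIs of both rule genes, where 12 and 10 UMIs were left labelled WT. That of *Ccl3* was 5.33 without predicted doublets, with 8 UMIs left labelled WT. In the other conventional cells the log2 ratios of *Gzmk*, *Ccl4*, *Ccl3* and *Ccl5* were 2.54, 2.72, 2.57 and 2.23, so this order was not particular to the dividing cells. *Ccl5* had 1949 and 9158 CPM there, above the proliferating conventional cells of each library.

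**Figure D3:**
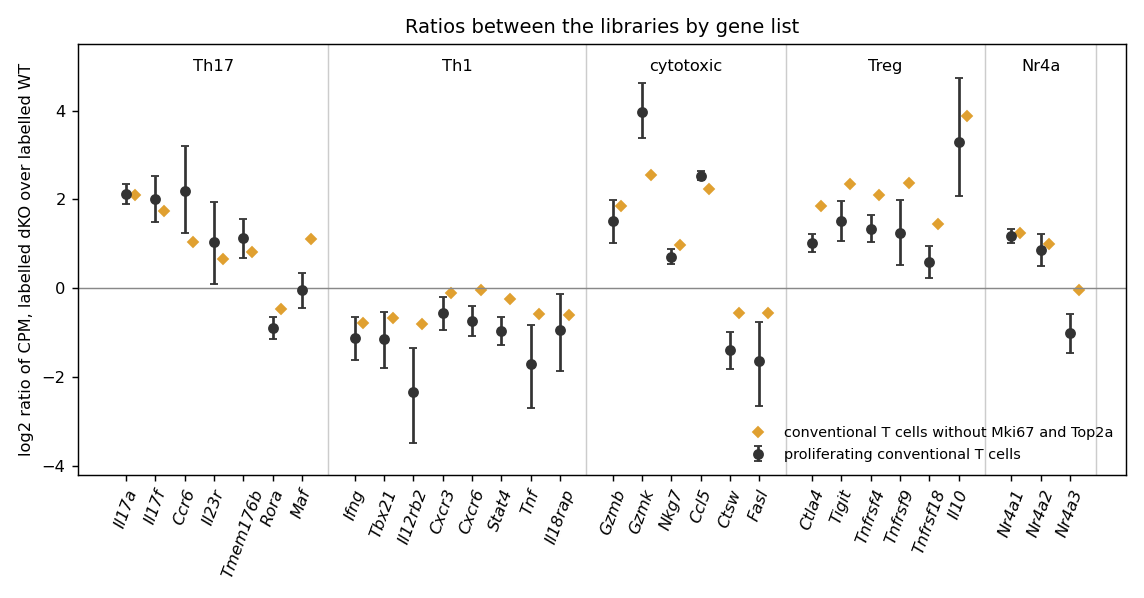
Log2 ratio of CPM, labelled dKO over labelled WT, for genes of the Th17, Th1, cytotoxic, Treg and Nr4a lists in proliferating conventional T cells (dark points, with exact 95% intervals of counting error) and in conventional T cells without *Mki67* and *Top2a* (diamonds). *Il17a* has 2.12 and 2.10, *Ifng* -1.12 and -0.77, and *Nr4a3* -1.01 and -0.04.

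Most counted genes of the Treg program were higher labelled dKO in cells chosen for the absence of *Foxp3* and *Ikzf2*. Of 12 past the minimum (19 listed and measured), 7 were at least 2-fold higher and 2 lower (median 1.14). *Ctla4*, the inhibitory receptor for CD80 and CD86, had 360 and 730 CPM, a log2 ratio of 1.02 (0.81 to 1.23), and a UMI in 45.8% and 77.7% of cells. *Tigit*, a receptor for CD155, had 66.4 and 190 CPM, and *Tnfrsf4* (OX40) had 144 and 365 CPM. *Batf*, an AP-1 factor of effector and tissue Treg cells, had 87.5 and 231 CPM, a log2 ratio of 1.40 (1.0 to 1.80). These levels were lower than in proliferating Tregs, where *Ctla4* had 808 and 1709 CPM and *Tnfrsf4* 461 and 882 CPM. In the other conventional cells *Ctla4*, *Tigit* and *Tnfrsf4* differed more between libraries than in the dividing ones, with log2 ratios of 1.85, 2.35 and 2.11. The part of Tregs with uncaptured *Foxp3* in these values was not tested; the list had 2150 CPM labelled dKO inside the rule and 3303 CPM in the 48 cells left out by 1 UMI.

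Of 18 activation and costimulation genes past the minimum, 5 were at least 2-fold higher labelled dKO and 2 lower (median -0.15). *Ctla4*, *Tnfrsf4*, *Tnfrsf9* and *Batf* of the Treg list are among the former. *Cd40lg* (chrX:57212143-57224042), the ligand by which helper cells license B cells and dendritic cells, had 370 and 126 CPM, a log2 ratio of -1.56 (-1.97 to -1.17), and *Cd69*, an early activation and retention receptor, had 398 and 175 CPM, a log2 ratio of -1.18 (-1.53 to -0.85). After thinning, *Cd40lg* had a UMI in 48.3% (41.3 to 55.4) and 17.2% (10.2 to 26.4) of cells, against 63.5% and 37.9% without thinning. *Icos* had 507 and 650 CPM, a log2 ratio of 0.36 (0.16 to 0.56). *Lag3*, an inhibitory receptor for MHC class II, had 2 and 28 UMIs, a log2 ratio of 5.10 (3.11 to 8.22). Its count labelled WT lies under the floor of 3 UMIs, so the size of this ratio is not settled. *Itga1*, the integrin chain of resident cells that bind collagen, had 82 and 3 UMIs, the latter at the floor, a log2 ratio of -3.48 (-5.79 to -1.88).

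Part of the immediate early genes were lower labelled dKO. Of 17 past the minimum (21 listed), 6 were at least 2-fold lower and 1, *Nr4a1*, was higher (median -0.60). *Dusp1*, a phosphatase that ends MAP kinase signaling, had 438 and 206 CPM, a log2 ratio of -1.09 (-1.41 to -0.78), while it was 0.41 (0.36 to 0.47) in the other conventional cells. *Dusp2* had 314 and 118 CPM, *Jun* 225 and 103 CPM and *Fosb* 65.6 and 30.9 CPM. *Egr1*, a direct target of TCR signaling, had 64.8 and 53.6 CPM, a log2 ratio of -0.27 (-0.97 to 0.39) that counting error does not separate from 0.

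Among the 8 genes with the lowest ratio by the naming rule were *H2-Ab1*, *Filip1l*, *Il31ra*, *Ptprj*, *Chn2*, *Rbpj* and *Cd226*. *Il31ra*, a subunit of the interleukin 31 receptor, had 267 and 57.8 CPM, and *Cd226*, the activating counterpart of TIGIT, had 266 and 72.2 CPM. Both were also lower labelled dKO in the other conventional cells (log2 ratios of -1.42 and -1.12) and in proliferating Tregs (-1.78 and -2.5). After thinning, *Il31ra* had a UMI in 28.3% and 13.98% of the proliferating conventional cells. Its shares were 44.9% and 21.96% in *Siglech* cells and 45.1% and 21.2% in *Lyz2* cells. *Filip1l* was also read in *Siglech* cells (50.8% and 30.8%). The part of free RNA in these 2 genes was not tested. *Rbpj*, the transcription factor of Notch signaling, had 229 and 59.8 CPM, a log2 ratio of -1.93 (-2.54 to -1.38) compared with -0.52 in the other conventional cells. In proliferating Tregs the log2 ratio of *Rbpj* was -1.58 (-1.97 to -1.20). *H2-Ab1*, an MHC class II chain of antigen-presenting cells, had 176 and 22.7 CPM (log2 ratio -2.95), but 5 cells labelled WT held 75.1% of its UMIs, and the same 5 cells, 1 of them marked as a doublet, held the 329 UMIs of B and plasma cell markers given above. Without the 5 cells of each library richest in it, *H2-Ab1* had 52 UMIs labelled WT and 1 labelled dKO, too few for a ratio. The 8 highest were *Ccl4*, *Gzmk*, *Ccl3*, *Ccl5*, *Cd27*, *Ccr6*, *Il17a* and *Rgs16*. *Cd27*, a costimulatory receptor of less differentiated cells, had 14.3 and 66.0 CPM, below the 52.5 and 157 CPM of the other conventional cells. With 1 cell per clonotype the log2 ratio of *Cd27* was 1.0 and that of *Rgs16*, a regulator of G protein signaling, was 0.70, against 2.21 and 2.05 over all cells.

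The converse question was which conventional cells were found in division. Cells of each library with at least 2000 UMIs (2209 and 769) were thinned to 2000 UMIs for the gene asked about. Those with *Il17a* or *Il17f* were proliferating in 22.4% (13.6 to 33.4) labelled WT and 26.4% (18.3 to 35.9) labelled dKO, against 8.81% (7.64 to 10.1) and 9.80% (7.65 to 12.3) of those without, differences of 13.6 points (5.54 to 24.2) and 16.6 points (8.74 to 25.9). For *Ifng* the shares were 9.16% with and 9.32% without labelled WT, and 9.17% and 12.6% labelled dKO, and both differences had intervals that included 0 (-2.79 to 2.91 and -8.35 to 3.87 points). *Gzmb* had a difference of 9.06 points (2.34 to 18.4) labelled WT and 2.19 points (-3.54 to 9.78) labelled dKO. Without thinning and over all depths, *Il17a* or *Il17f* cells were proliferating in 11.7% against 4.27% labelled WT and 10.6% against 1.68% labelled dKO, and *Ifng* cells in 6.27% against 3.97% and 2.78% against 2.15%.

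After thinning, cells with *Il7r*, *Tcf7* or *Klrk1* were less often in division than cells without the gene. Cells with *Il7r* were proliferating in 5.07% against 13.5% without it labelled WT and in 4.30% against 19.4% labelled dKO. For *Tcf7*, the factor TCF-1 of naive and stem-like cells, the shares were 5.68% against 12.0% and 8.26% against 13.9%. *Klrk1*, the receptor NKG2D, showed 5.13% against 9.68% and 2.33% against 12.7%. Unthinned shares over all depths kept this order for *Il7r* (3.66% against 5.15% and 1.65% against 2.62%). They did not keep it for *Klrk1* labelled WT (5.03% and 4.44%) and for *Tcf7* in both libraries (4.66% and 4.39%, 2.85% and 2.02%). *Cd4* differed as well, at 7.34% against 10.5% labelled WT and 10.0% against 16.7% labelled dKO after thinning, but 6.03% against 3.61% and 2.88% against 1.03% without. *Il7r* is also read in *Siglech* cells (48.2% and 42.9% after thinning), and the part of free RNA in its shares was not tested.

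**Figure D4:**
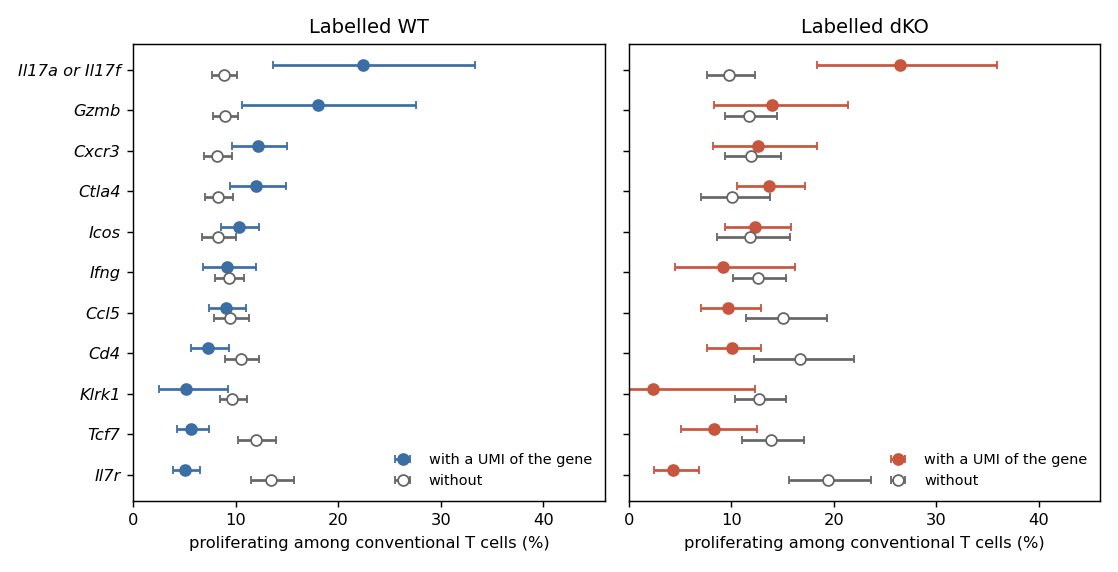
Share of conventional T cells with at least 2000 UMIs that were proliferating (%, horizontal axis) among cells with a UMI of the named gene after thinning to 2000 UMIs (filled) and among cells without (open), in the library labelled WT (left) and labelled dKO (right). Bars are exact 95% intervals of counting error; *Il17a* or *Il17f* is highest in both libraries (22.4% and 26.4%) and *Il7r* (labelled WT, 5.07%) and *Klrk1* (labelled dKO, 2.33%) are lowest.

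Proliferating Tregs were compared next. Of 3255 genes past the minimum, 1 (0.0307%) was at least 2-fold higher in the proliferating conventional cells of both libraries and 25 (0.768%) were at least 2-fold lower. The absence of *Foxp3* and *Ikzf2* is part of the rule, so the 6 of 10 Treg genes past the minimum among the latter are a description. The gene that was higher was *Actn2*, an alpha-actinin of muscle, with 64.8 and 53.6 CPM against 17 and 10.1 CPM. *Klrg1*, a receptor of terminally differentiated cells, had 10.9 and 20.6 CPM against 191 and 226 CPM, and *Tnfrsf9* (4-1BB) had 28.6 and 68.1 CPM against 213 and 347 CPM. *Areg*, the growth factor amphiregulin of tissue Tregs, had 74.0 and 66.0 CPM against 205 and 492 CPM. *Il2ra*, the high-affinity chain of the interleukin 2 receptor, had 34.5 and 20.6 CPM against 133 and 118 CPM. *Tox*, *Hopx*, *Il1rl1* and *Izumo1r* were also at least 2-fold lower. None of the cell cycle lists had a gene 2-fold apart from proliferating Tregs in both libraries.

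T cells that stem from 1 ancestor share a TCR, whose CDR3 loops are made by joining of V and J segments (and D segments in TRB) with random bases at the junction. A clonotype is defined here by the V gene, J gene and CDR3 nucleotides of the leading TRA and the leading TRB chain. A receptor contig was found for 169 of the 271 proliferating conventional cells labelled WT and 75 of the 103 labelled dKO, and both chains for 138 and 53 cells, in 92 and 45 distinct clonotypes. No clonotype was shared between the libraries. The CDR3 sequences of the clonotypes on which the results turn are given 5′ to 3′ as the deposited tables give them, with capitals for bases that lie outside the V start and J end most often seen with the same segments in these tables. In the library labelled WT clonotype 1 (TRAV7D-5 and TRAJ39 with TRBV13-1 and TRBJ2-2) had the most proliferating conventional cells, and in the library labelled dKO clonotype 1 had the most. Clonotype 2 labelled dKO, which had as many as 3 further clonotypes, is shown beside it because both carry 1 TRB sequence.
WT clonotype 1 TRA: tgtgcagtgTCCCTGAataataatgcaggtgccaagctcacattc
WT clonotype 1 TRB: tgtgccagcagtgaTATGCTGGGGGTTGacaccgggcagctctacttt
dKO clonotype 1 TRA: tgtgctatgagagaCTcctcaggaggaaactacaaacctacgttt
dKO clonotype 1 TRB: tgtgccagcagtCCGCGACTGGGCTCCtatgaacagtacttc
dKO clonotype 2 TRA: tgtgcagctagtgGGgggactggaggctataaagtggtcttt
dKO clonotype 2 TRB: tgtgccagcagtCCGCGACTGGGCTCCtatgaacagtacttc

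WT clonotype 1 had 22 proliferating conventional cells among 70 cells, a share of 31.4% (20.9 to 43.6), and 36 more of its cells were conventional without *Mki67* and *Top2a*. *Ifng* had a UMI in 25 of the 70 cells and *Il17a* or *Il17f* in 1. The 22 dividing cells, none of them marked as a doublet, had 1029 CPM of *Ccl5*, 79.2 CPM of *Il7r* and 129 CPM of *Ifng*, against 4372, 253 and 242 CPM in the 36 others, at median depths of 4813 and 2244.5 UMIs. *Nkg7*, a granule membrane protein, had 802 and 912 CPM in these groups, and *Icos* 534 and 483 CPM. The next largest numbers of dividing cells in a clonotype labelled WT were 3, in clonotypes of 37, 21, 14, 11 and 3 cells.

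The dKO clonotypes 1 and 2 carried the same TRB chain, base for base (TRBV19 and TRBJ2-7, with 15 junctional bases in capitals), with different TRA chains (TRAV16N and TRAJ6, and TRAV7-4 and TRAJ12). Clonotype 1 had 5 proliferating conventional cells of 35 and clonotype 2 had 2 of 18. The TRB chain was found in 71 cells, 38 with the first TRA chain, 19 with the second and 4 of these with both. Among the 71 cells, 7 were proliferating conventional cells, 29 had a *Foxp3* or *Ikzf2* UMI and 7 of these 29 proliferated. *Foxp3* itself had a UMI in 5 cells.

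The other 3 clonotypes labelled dKO with at least 2 proliferating conventional cells consisted of 2 cells each, both dividing, and 5 of these 6 cells had *Il17a* or *Il17f*. Their TRB sequences are shown because each belongs to a pair of dividing cells with the same clonotype, and their V segments differed (TRBV12-2 or TRBV13-2, TRBV20 and TRBV10).
dKO clonotype 3 TRB: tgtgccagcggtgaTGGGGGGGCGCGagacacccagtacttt
dKO clonotype 4 TRB: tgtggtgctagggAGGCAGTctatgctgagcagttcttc
dKO clonotype 5 TRB: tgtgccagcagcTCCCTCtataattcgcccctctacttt

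**Figure D5:**
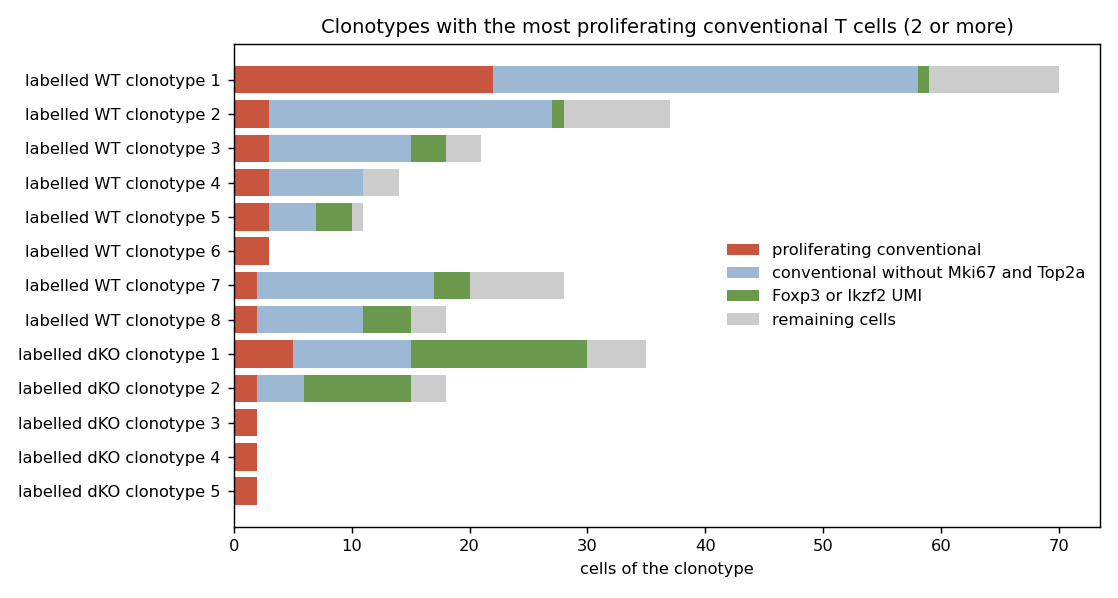
Cells per clonotype (horizontal axis) for the clonotypes with the most proliferating conventional T cells, 8 of the 21 labelled WT and all 5 labelled dKO with at least 2 of them, divided into proliferating conventional cells, conventional cells without *Mki67* and *Top2a*, cells with a *Foxp3* or *Ikzf2* UMI and remaining cells. WT clonotype 1 stands out with 22 of 70 cells, and dKO clonotypes 1 and 2 have 15 and 9 cells with a *Foxp3* or *Ikzf2* UMI.

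Proliferating conventional cells belonged to expanded clonotypes more often labelled WT, in part through clonotype 1. Their clonotype had at least 1 other cell in 70.3% (61.9 to 77.8) labelled WT and 50.9% (36.8 to 64.9) labelled dKO, against 41.1% (38.3 to 44.0) and 44.3% (40.5 to 48.2) of the other conventional cells. The difference between libraries was 19.3 points (4.09 to 34.2), and without WT clonotype 1 the share labelled WT was 64.7% (75 of 116) and the difference 13.7 points (-2.07 to 29.1). Without that clonotype the other conventional cells labelled WT had 39.3% (36.5 to 42.2). The clonotype was shared with another proliferating conventional cell in 48.6% and 24.5%, in 21 and 5 clonotypes, and in 38.8% (45 of 116) labelled WT without clonotype 1. These shares were read from 138 cells labelled WT and 53 labelled dKO. Such a share can rise with the number of cells read, and the numbers were not made equal. Clonotypes were also classed by how many conventional T cells they held, with cells that had a *Foxp3* or *Ikzf2* UMI and cells outside the T cell rule not counted. Proliferating cells were 5.21% (44 of 845) of conventional cells in clonotypes with 1 conventional cell labelled WT, 16.8% (12.2 to 22.3) in those of 2 to 4 cells, 11.0% (7.57 to 15.4) in those of 5 to 19 and 18.4% (12.4 to 25.8) in those of 20 or more. The last value rests on clonotype 1 and was 5.41% without it. Labelled dKO the shares were 6.18%, 9.79% and 9.90%, and the class of 20 or more conventional cells held a single clonotype, the one of 281 cells, with 1 of 57 (1.75%, 0.0444 to 9.39), so that no trend with size can be read from it. More receptors were read in dividing cells (62.4% and 72.8% with a contig, against 42.8% and 34.1% of the other conventional cells), and the part of this difference in the clone sizes was not tested.

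Clonotypes with a *Foxp3* UMI in another cell held 7 of 138 proliferating conventional cells labelled WT (5.07%, 2.06 to 10.2) and 8 of 53 labelled dKO (15.1%, 6.75 to 27.6). The other conventional cells had 8.77% and 21.0%, and proliferating Tregs 9.09% and 34.4%. Cells that shared a clonotype with a proliferating conventional cell numbered 383 and 410. Of these, 65.5% (60.5 to 70.3) labelled WT and 24.6% (20.5 to 29.1) labelled dKO were conventional without *Mki67* and *Top2a*, and 10.7% (7.79 to 14.2) and 54.9% (49.9 to 59.8) had a *Foxp3* or *Ikzf2* UMI. Of the 225 such cells labelled dKO, 177 were in a single clonotype of 281 cells with 1 proliferating conventional cell. *Foxp3* itself had a UMI in 1.57% (0.577 to 3.38; 6 of 383) and 25.6% (21.5 to 30.1; 105 of 410) of the cells that shared a clonotype. Segment usage was broad. The most frequent TRBV segment was TRBV31 in 13% of 92 clonotypes labelled WT and TRBV5 in 15.6% of 45 labelled dKO, and the mean CDR3 length of TRB was 41.6 ± 4.23 bases (SD, n = 92 clonotypes) and 41.5 ± 3.63 bases (SD, n = 45).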

How the data were processed

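Hepatic CD4+ T cells were measured by 5′ droplet sequencing of RNA and TCR, with 1 library of each kind per genotype and 2 mice pooled in each. The authors deposited UMI counts per gene and cell from Cell Ranger 7.0.1 on mm10, restricted to called cells and not normalized, and contig tables with UMI counts, segments and CDR3 sequences. From these counts CPM, log2 ratios and percents of cells were derived here. Gene positions come from GENCODE M21 on GRCm38. Library totals rest on the cells named. The cells, gene lists and naming rule were chosen with earlier results of these data known. Genes were named as the 8 at each end of the ratio between libraries and of the ratio against other conventional cells (with 50 or more CPM in a library and 10 or more UMIs in the lower one; rule genes, TCR and immunoglobulin segments and the mitochondrial and ribosomal genes were not eligible), besides genes of the lists counted. A 2-fold call needed 50 or more CPM in either library and 10 or more UMIs in total.

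Scrublet's automatic threshold marked 0 cells in both libraries, so the top scores were taken instead, at 0.8% per 1000 cells, together with cells with at least 2 TRB chains; this was decided after the automatic result was seen. Cells were thinned to 2000 UMIs with seed 1. The software was scanpy 1.11.5, scipy 1.17.1, pandas 2.3.3, numpy 2.4.6 and matplotlib 3.10.9 under Python 3.11.15, and edgeR 4.0.16 in R 4.3.3 for the TMM factor alone (log2 dKO over WT -0.01). The ratio computation was tested on simulated data. Alternatives were other proliferation thresholds and depths, removal of doublets or of clonotypes with *Foxp3*, 1 cell per clonotype, other minimums, scalings and clonotype definitions. UMIs of 5′ reads do not separate overlapping genes or near-identical copies. Some genes of the lists and of the naming rule are not reported here.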

Additional observations from a re-analysis of the deposited data

How the results depend on the processing

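The 2.02-fold higher share of proliferating cells labelled WT stayed between 1.67 and 2.23 under 8 of 16 alternatives. It was 1.56 with at least 2 UMIs of *Mki67* and *Top2a*, 1.45 after thinning to 1000 UMIs, 1.39 with T cells called by a receptor contig and 1.12 with 1 cell per clonotype. It turned to 0.737 after thinning to 2000 UMIs and to 0.501 in the thinning that kept the most UMIs per cell. It also turned to 0.753 with only *Mki67* and *Top2a* thinned to 2000, and to 0.767 in cells with at least 2000 UMIs without thinning. These last 2 settings and thinning to 500 UMIs were chosen after seeing the data. So was leaving out WT clonotype 1 or the 5 richest cells of a gene. The same holds for leaving out other cells in the comparisons with Tregs and the shares with *Ifng* or *Il17a*. Genes at least 2-fold higher (70) came to 132 with 1 cell per clonotype, 34 with a minimum of 100 CPM and 377 without a CPM minimum. Genes at least 2-fold lower (184) came to 308, 87 and 887 under these settings and 297 with at least 2 UMIs. The median of the G2/M list was -0.0276 with at least 2 UMIs, and with 1 cell per clonotype that of the spindle list was -0.0907 and that of the Th2 list 0.0825. Genes higher than in proliferating Tregs (1) came to 2 with at least 2 UMIs, 4 without doublets and 7 with 1 cell per clonotype. The difference in cells with *Ifng* was -30.1 points with at least 2 UMIs, in place of -17.2. By TRB alone, the shares by number of conventional cells in the clonotype labelled WT were 3.18% (1 cell), 11.3% (2 to 4) and 9.98% (20 or more), and labelled dKO 4.52% (5 to 19). Without WT clonotype 1 the share of the largest class was 5.41%. Thinning to 2000 UMIs gave 14.6% (1 cell) and 22.2% (2 to 4) labelled dKO and no value for clonotypes of 20 or more. The difference in cells with *Il17a* or *Il17f*, in the S share of the summed cell cycle UMIs and in clonotypes with *Foxp3* kept its direction under every alternative tried, whereas the mean S share per cell turned after thinning to 2000 UMIs (29.97% labelled WT and 29.56% labelled dKO), and no named gene that was 2-fold apart turned its direction (389 values within and 31 beyond the spread), while *Cdkn1b*, *Il21*, *Maf*, *Pdcd1* and *Tcf7*, which were not, changed sign in at least 1 setting. The cause of these shifts was not tested. No paired analysis was possible because each genotype has 1 library. Depth limits genes under about 10 UMIs and the 103 cells labelled dKO.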
